A study of Mus musculus with 2 samples.

Results

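Of the 22132 R-loop peaks in neural stem/progenitor cells (NSPCs), 1388 (6.27%) contained at least 1 protein-coding gene end and no protein-coding gene start. These end-only peaks were found from the peak positions and the gene limits alone, with the transcription end site (TES) and the transcription start site (TSS) read on each gene's strand. A further 2333 peaks held a gene start only, 542 held a start and an end, and 17869 held neither. NSPCs were primary cells from the frontal brain of C57BL/6 mice at postnatal day 7. They were kept for 48 h in 0.5 μM aphidicolin, an inhibitor that slows DNA polymerases. No treatment is named in the labels, and this one comes from the methods. RNA:DNA hybrids were recovered with the S9.6 antibody from DNA cut by 5 restriction enzymes (DRIP-seq), and 1 list of peak positions was analysed. It holds no signal or read count and no replicates, so depth and replicate error are unknown, strand is not known, and the intervals given below are exact binomial 95% intervals that cover counting only.

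An R-loop is a hybrid of RNA with its template strand that leaves the other DNA strand single-stranded. At the end of a gene, the cleavage and polyadenylation machinery recognises the poly(A) signal in the nascent RNA and cuts the transcript, while RNA polymerase II runs on into the flanking DNA. The exonuclease XRN2 then degrades the uncapped RNA that is left, and pausing over G-rich DNA past the poly(A) signal helps to release the polymerase. R-loops are known over such pause sites, the human β-actin terminator being the best studied. Where genes on opposite strands run towards each other (convergent genes), both terminate in shared DNA, and where genes follow each other on 1 strand (tandem genes), the terminator of the upstream gene lies before the next promoter.

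The end-only peaks took in 1654 of 22367 protein-coding gene ends, 7.39% of all ends, and 10.9% of ends lay in a peak of any kind. Among the end-only peaks, 1124 held 1 end, 262 held 2 ends and 2 held 3. The ends in 257 peaks came from both strands, and 7 peaks held several ends of 1 strand. The neighbouring boundaries compared were ends of genes on the other strand and starts of genes on the same strand, within 5 kb on either side. Other boundaries were not considered. An end was called convergent where the nearest of those compared was an end on the other strand, and tandem where it was a start on the same strand. Remaining ends lay inside another protein-coding gene or were isolated. A peak with several ends took the first of these classes that any of its ends had. By this rule, 470 end-only peaks (33.9%, 31.4 to 36.4%) were convergent, 132 (9.51%) tandem, 56 (4.03%) inside another gene and 730 (52.6%, 49.9 to 55.2%) isolated.

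The sequences of a few gene ends are shown first, because they carry the features measured further on. The last 30 bases of the gene (mm9, coding strand, 5′ to 3′) are printed for 2 convergent pairs that meet inside 1 peak, Ezr with Sytl3 and Bhlha15 with Tecpr1, and for Id3 and Cpsf4. Capitals mark the poly(A) signal AATAAA or ATTAAA.
Ezr, chr17:6942390-6942419, minus strand: ttgttAATAAAtgctgggagttacaggaca
Sytl3, chr17:6942364-6942393, plus strand: ttctgatctcAATAAAcgctcaacactgtc
Bhlha15, chr5:144955281-144955310, plus strand: acaaatgtccAATAAAaatcttgtcagtca
Tecpr1, chr5:144955311-144955340, minus strand: ttctatttAATAAAaatttataccacagcg
Id3, chr4:135701641-135701670, plus strand: tatttcgtatttaAATAAActgcctccatt
Cpsf4, chr5:145942881-145942910, plus strand: tatgaggttgATTAAAaagcttgtttttta

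Past the gene end, the 60 bases in which G outnumbers C the most within 2 kb, inside the peak and outside any annotated gene, are shown for 4 genes. They were picked for that imbalance, so their composition is no result, and they serve to show what the DNA behind a positive GC skew looks like. Capitals mark runs of at least 3 G on the coding strand.
Actb, chr5:143664711-143664770, minus strand, from base 24 after the end: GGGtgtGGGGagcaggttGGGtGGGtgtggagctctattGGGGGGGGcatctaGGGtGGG
Id3, chr4:135702258-135702317, plus strand, from base 588: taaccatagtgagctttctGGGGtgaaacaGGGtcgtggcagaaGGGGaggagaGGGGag
Acrbp, chr6:125014512-125014571, plus strand, from base 1227: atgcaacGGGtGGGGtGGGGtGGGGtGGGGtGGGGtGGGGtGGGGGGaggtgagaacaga
Fgfr1, chr8:26687624-26687683, plus strand, from base 1438: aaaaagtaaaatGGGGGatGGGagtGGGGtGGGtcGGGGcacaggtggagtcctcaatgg

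Convergent gene ends were found in end-only peaks more often than the other classes. Of 4481 convergent ends, 729 (16.3%) lay in an end-only peak, compared to 134 of 2515 tandem ends (5.33%), 56 of 1152 ends inside another gene (4.86%) and 735 of 14219 isolated ends (5.17%). When peaks of any kind were counted, 24.2% of convergent ends, 16.9% of tandem ends, 6.94% of ends inside another gene and 6.03% of isolated ends lay in a peak. Tandem ends were thus close to isolated ends among end-only peaks but not among all peaks, because 11.5% of them lay in a peak that also held a gene start, which the rule leaves out. The same share was 7.97% for convergent ends and 0.858% for isolated ends. Ends of a convergent pair can share a peak and are not independent. No test applies to the difference between classes, since peaks of 1 list are no replicates.

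**Figure D1:**
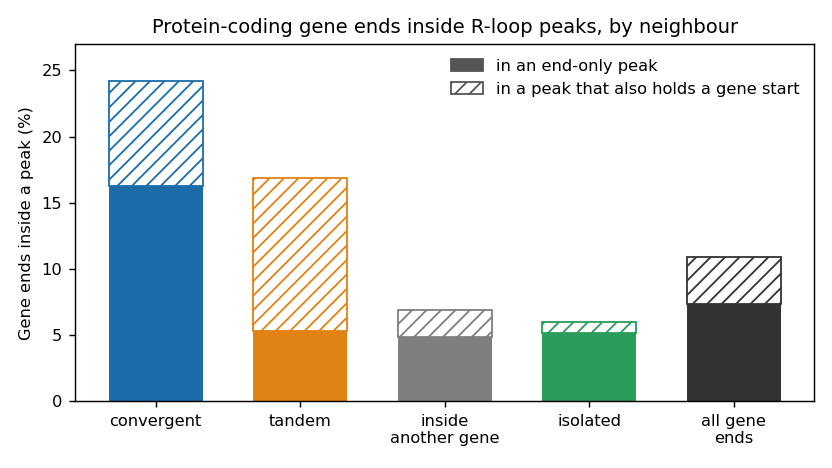
Percent of protein-coding gene ends inside an R-loop peak, by class of the end and for all ends. Filled bars are ends in end-only peaks and hatched bars add ends in peaks that also hold a gene start. The filled bar reaches 16.3% for convergent ends and between 4.86% and 5.33% for the other classes, and with the hatched part tandem ends reach 16.9%.

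The order of convergent and isolated ends was not limited to G+C-rich ends. All gene ends were ranked by the G+C content of the 1 kb before the end and cut into quintiles. The share in end-only peaks was 1.43% in the quintile poorest in G+C and 13.8% in the richest. Convergent ends were at 3.58% (2.17 to 5.53%) in the poorest quintile, 17.5% (14.9 to 20.3%) in the middle one and 18.6% (16.7 to 20.7%) in the richest. Isolated ends were at 1.18% (0.846 to 1.61%), 3.96% (3.29 to 4.72%) and 12.7% (11.2 to 14.3%) in the same quintiles. Convergent ends were above isolated ends in each of the 5 quintiles, with counting intervals that did not overlap. These intervals treat ends as independent, although 514 of the 729 convergent ends shared their peak with an end of the other strand. The intervals of convergent ends are therefore too narrow. Tandem ends were at 0.658%, 4.62%, 7.01% and 7.68% in the same quintiles. Their intervals overlapped those of isolated ends in the 4 poorer quintiles but not in the richest, where tandem ends were lower. With peaks of any kind counted, the richest quintile held 24.8% of tandem and 15.7% of isolated ends, so that this order turned with the rule on gene starts. The order of convergent and isolated ends also held for genes whose start lay in no peak, with 558 of 3474 convergent ends (16.1%) and 516 of 12538 isolated ends (4.12%). Among genes whose start lay in a peak the shares were closer, 17.0% (14.7 to 19.4%) for convergent and 13.0% (11.5 to 14.7%) for isolated ends, with intervals that just overlapped. With peaks of any kind counted, these shares were 42.2% and 19.8%. Among genes whose start lay in no peak, the shares counted in this way were 19.03% for convergent and 4.18% for isolated ends. How far the closer shares come from leaving out peaks that hold a start was not tested. Transcription of these genes was not used here, and its part in these shares was not tested.

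**Figure D2:**
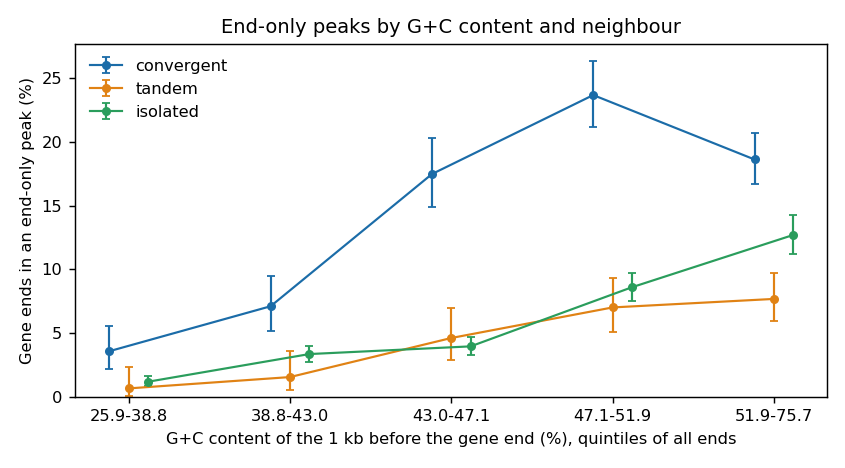
Percent of gene ends that lie in an end-only peak (vertical axis) for quintiles of all protein-coding ends by G+C content of the 1 kb before the end (horizontal axis, percent). Points are shares, bars exact binomial 95% intervals for counting, and colours the class of the end. Convergent ends rank highest in every quintile, at 3.58% in the poorest, 23.7% in the second richest and 18.6% in the richest. Isolated ends run from 1.18% in the poorest to 12.7% in the richest.

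End-only peaks were wide. Their median width was 4.16 kb, with quartiles of 2.50 and 6.67 kb and a range of 0.198 to 51.9 kb. Start-only peaks had a median of 2.33 kb, start-and-end peaks 6.91 kb, peaks with neither 1.02 kb and all peaks 1.32 kb. A wide peak is likelier to reach a gene end, so part of this order follows from the rule. Of the end-only peaks, 1322 (95.2%) were at least 1 kb and 138 at least 10 kb wide, and together they covered 7.23 Mb, 14.8% of all bases in peaks. By class, the median was 4.87 kb for convergent, 4.11 kb for isolated, 3.73 kb for ends inside another gene and 3.04 kb for tandem peaks. The interquartile ranges of these classes overlapped, from 2.89 to 8.09 kb for convergent and from 2.00 to 4.89 kb for tandem peaks. The order of classes also follows in part from the rules. A peak with several ends is called convergent first, and a tandem peak cannot hold the neighbouring start. Ends of both strands lay in 256 of the 470 convergent peaks, and pairs that shared a peak had a median peak width of 6513 bp.

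The widest end-only peak was an isolated one at Clic4, which encodes a chloride intracellular channel protein. It ran for 51.9 kb (chr4:134761363-134813310), covered 73.8% of the gene and reached 8521 bp past its end, while the start of Clic4 lay in another peak. The peak at Brd3, a bromodomain protein that binds acetylated histones, was 31.7 kb wide (chr2:27295478-27327224). A peak of 30.3 kb covered 99.6% of Smad7, an inhibitor of TGF-β signalling, and stopped short of its start. At the other extreme, a peak of 198 bp (chr4:43040393-43040590) held the very end of Stoml2, with 28 bp on the gene side of the last base, and 1 of 262 bp (chr15:88953612-88953873) held the end of the histone deacetylase gene Hdac10. Both of the narrowest peaks were tandem, and both were shorter than the median of 1.06 kb for the restriction fragments that hold a protein-coding gene end. For fragments with a gene end in an end-only peak the median was 1.99 kb, and the part of fragment length in which ends were recovered was not tested.

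Peaks reached to both sides of the gene end. Over the 1654 ends, the median length before the end was 2265 bp and that past it was 1780 bp, so that a median of 55.1% of the peak lay upstream. At least 90% of the peak was upstream for 153 ends and at most 10% for 141 ends. The stop codon was inside the peak for 1158 of the 1596 ends with an annotated stop codon (72.6%), and the whole last exon was inside for 1159 of 1654 ends (70.1%). The median share of the gene that its end-only peak covered was 12.1%. The median upstream share was 50.1% at convergent, 57.4% at isolated and 69.8% at tandem ends. Of the 729 convergent ends, 514 lay in a peak that also held an end of the other strand, where most of what is upstream of one end is downstream of the other, so their shares mirror each other by construction (median 46.9%). At the 215 convergent ends with no end of the other strand in the peak, the median was 61.2%. Tandem peaks reached a median of 0.92 kb past the end, compared to 1.65 kb at isolated and 2.30 kb at convergent ends. At the 514 convergent ends that shared a peak, the part past the end includes the part inside the partner gene. The longer reach at convergent ends is thus in part fixed by shared peaks. The neighbouring gene start lay a median of 2965.5 bp from a tandem end, counted on either side of it. A tandem peak that reached this start would not be a member. Where the start lies past the end, the short downstream reach at tandem ends is thus in part fixed by the rule. Isolated ends have no such limit within 5 kb.

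**Figure D3:**
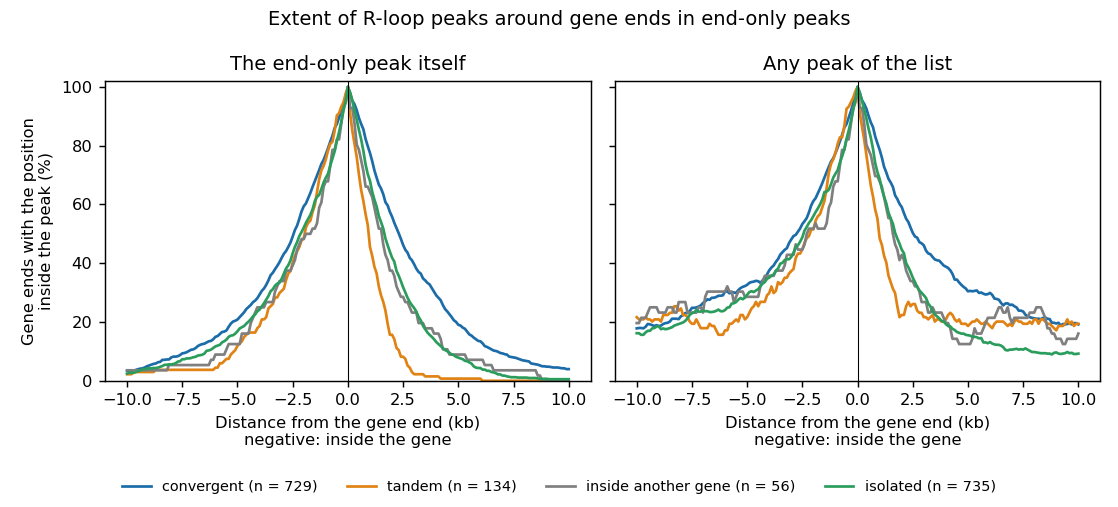
Percent of gene ends (vertical axis) for which the position at each distance from the end (horizontal axis, kb, negative before the end) lies inside the end-only peak itself (left) or inside any peak of the list (right), by class of the end. Positions before the end can lie beyond the start of a short gene. At 3 kb past the end the peak still covered 39.6% of convergent, 24.8% of isolated and 2.24% of tandem ends, and at 3 kb before it 41.8%, 34.7% and 30.6%. For 514 of the 729 convergent ends, the peak also held an end of the other strand.

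Further from the end, the flanks of isolated ends differed by side. Any peak, the end-only peak included, covered the position 10 kb before the end for 16.2% of isolated ends. It covered the position 10 kb past the end, where no gene on the same strand had begun within 5 kb, for 9.25%. For convergent ends, which have a gene on either side, the values were 17.8% and 19.2%. The end-only peak itself covered these 2 positions for 2.45% and 0.544% of isolated ends, and for 3.43% and 3.98% of convergent ends. In genes shorter than 10 kb, the position before the end lies beyond the gene start. The lower quartile of gene length was 10851 bp at isolated and 7994 bp at convergent ends. Another peak lay within 10 kb of 969 end-only peaks (69.8%), at a median gap of 4.36 kb over all of them.

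Convergent genes shared their peak in many cases. Of the 470 convergent peaks, 256 held ends of both strands and 214 held ends of 1 strand. Of the 215 ends in the latter whose partner lay outside the peak, 200 had the partner in no peak at all, 10 in another end-only peak and 5 in a peak with a gene start. Including 1 peak whose ends lay over 5 kb apart and so were not convergent by the rule, 257 pairs of opposite ends shared an end-only peak. Their ends were a median of 537 bp apart, and in 104 of them (40.5%) the transcribed tails overlapped. Their peaks had a median width of 6513 bp. The peak's centre lay between the ends in 64 pairs (24.9%), and the longer arm took a median of 69.4% of the sequence on both sides. Both values depend on geometry. The stretch between the ends is short beside the peak, and the longer arm is by definition the larger part. Whether peaks lie off the meeting point was therefore not tested. Because DRIP-seq keeps no strand, it cannot be told apart which of the converging genes the hybrid RNA came from.

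Distance within a convergent pair was compared over all 2192 pairs of genes whose ends are each other's nearest boundary under the class rule. Both ends were in 1 peak for 403 pairs (18.4%), in separate peaks for 9, and only 1 end was in a peak for 233, which left 1547 pairs (70.6%) without a peak at either end. Here peaks that also hold a gene start are counted. A peak at 1 end or both was found for 33.3% of pairs at most 500 bp apart, 30.03% from 500 to 1000 bp, 29.8% from 1000 to 2000 bp and 25.9% from 2000 to 5000 bp. A shared peak became less frequent with distance, at 31.7%, 22.4%, 17.0% and 7.04% of pairs, as it must for peaks of limited width.

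The 3 widest convergent peaks each spanned a pair. A peak of 31.1 kb (chr10:61726130-61757274) held the ends of Tacr2, a tachykinin receptor, and of Hk1, a hexokinase, and reached 25671 bp into Hk1 but 2608 bp into Tacr2. A peak of 30.1 kb (chr5:144953081-144983183) held Bhlha15, a bHLH transcription factor, and Tecpr1, an autophagy gene, whose ends are 1 bp apart, and it covered 95.5% of Tecpr1. The ends of Ezr, which encodes the membrane-cytoskeleton linker ezrin, and of Sytl3 overlap by a few bases, and their peak of 29.1 kb (chr17:6933784-6962893) reached 20503 bp into Ezr and 8609 bp into Sytl3. The longer arm took 90.8%, 92.6% and 70.4% of the sequence on both sides in these 3 peaks. The median over all 257 pairs was 69.4%. In 1 of the other pairs this close, Cenpt, a centromere protein gene, and Tsnaxip1 end 1 bp apart, and the peak there was 2952 bp wide. The most ends in 1 peak were 3, at U2af1l4, Tmem149 and Wbp7 on chromosome 7 (12.1 kb) and at Rab6b, Srprb and Trf on chromosome 9 (7.89 kb).

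Among the tandem peaks, the widest was at Rasa3, a Ras GTPase-activating protein gene (23.8 kb, chr8:13565983-13589795), of which 95.9% lay upstream of the end. Vps11, a vacuolar sorting gene, had 12.6 kb (chr9:44155016-44167612) with 90.7% upstream, and the acrosin-binding protein gene Acrbp had 12.2 kb (chr6:125003227-125015402) with 82.6% upstream. In the closest tandem pairs, the peak over Il17rc, an interleukin receptor subunit gene, reached 8 bp past the end with the start of Creld1 157 bp away, and that over Slc25a34, a mitochondrial carrier gene, reached 61 bp with the start of Tmem82 191 bp away. The neighbouring start lay in another peak for 30 of the 134 tandem ends (22.4%). Of the 56 ends inside another gene, 42 lay in a gene on the opposite strand. The widest of these peaks were at the centrosomal gene Cep250 (12.5 kb), at Ccl25 (12.2 kb) and at Dok4 (11.6 kb). The gene around Ccl25 is a second record of Ccl25 itself, so that this class holds at least 1 case that comes from the annotation.

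**Figure D4:**
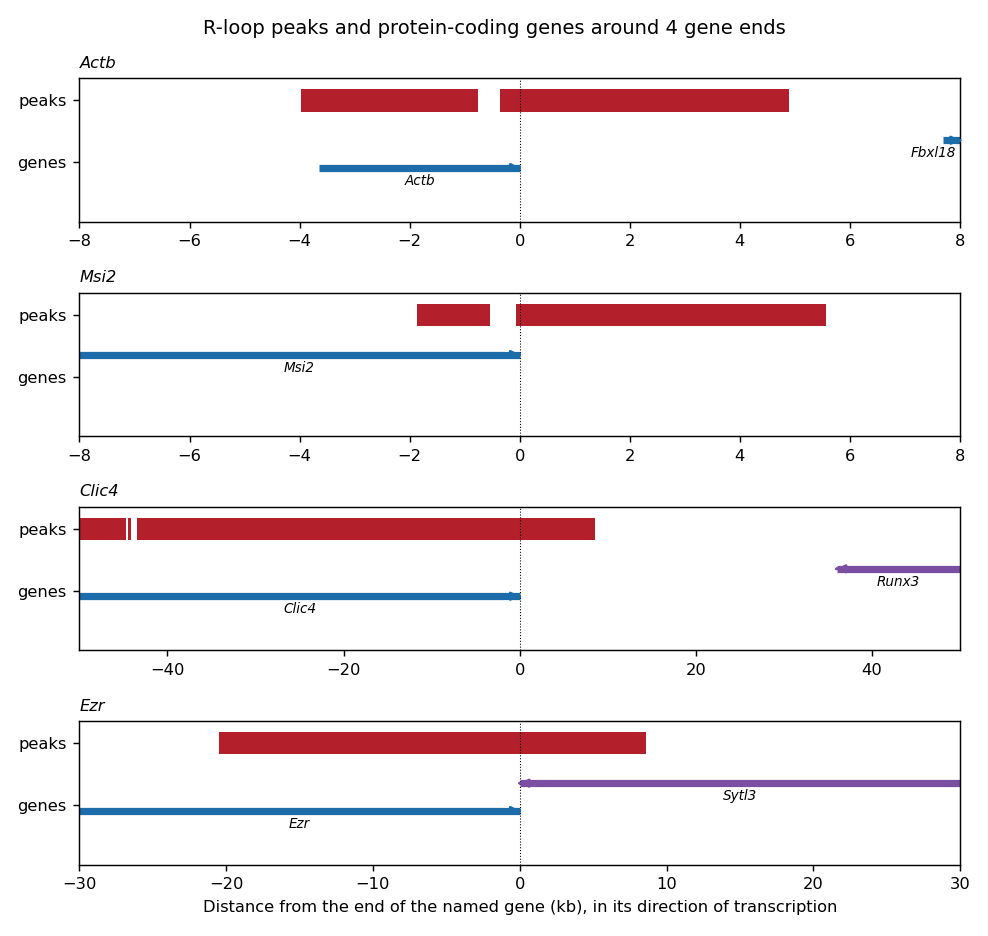
R-loop peaks (red) and protein-coding genes (blue in the direction of the named gene, purple opposite) around the ends of Actb, Msi2, Clic4 and Ezr, drawn to scale as distance from the gene end in kb in the direction of transcription, in windows of 8, 8, 50 and 30 kb to each side. The Actb peak lies almost wholly past the end (353 bp before it, 4887 bp after), as does that of Msi2 (70 bp before, 5564 bp after), the Clic4 peak mostly before it, and the Ezr peak spans the meeting point with Sytl3.

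End-only peaks were lower in G+C than peaks at gene starts. Their median G+C content was 50.0% (quartiles 47.1 and 52.7%), compared to 56.4% for start-only peaks, 52.8% for start-and-end peaks and 48.7% for all peaks. The ratio of observed to expected CpG was 0.226 in end-only peaks, 0.657 in start-only peaks and 0.212 in all peaks, so that end-only peaks were not CpG-rich in the manner of promoters. At the gene ends themselves, the 1 kb before the end had a mean of 49.6% ± 5.88 (SD, n = 1654 ends) and the 1 kb past it 49.3% ± 4.73. Where the end lay in no peak but the gene had a peak elsewhere, the means were 44.6% ± 6.91 and 45.6% ± 5.65 (SD, n = 6411), and over all protein-coding ends 45.3% and 44.7%.

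GC skew, (G-C)/(G+C) of the coding strand, was read over the same 1 kb windows. A positive value means that the RNA is rich in G. It had a mean of -0.0023 ± 0.0906 (SD) before and 0.027 ± 0.103 past the 1654 ends, and 60.9% of ends had positive skew past the end. A convergent end reads its partner's gene on the wrong strand, so isolated ends are the clearer case. Past the 735 isolated ends in end-only peaks, the mean was 0.0394 ± 0.111 (SD), and 65.6% of ends were positive. It was 0.0147 ± 0.0985 past the 3851 isolated ends that lay outside peaks in genes with a peak elsewhere (56.9% positive), and 0.0026 ± 0.114 past the 9511 isolated ends of genes without a peak (51.3% positive). Before the end, the order was not the same, at 0.0069 for isolated ends in end-only peaks and 0.0129 for those in genes with a peak elsewhere. The spread between ends was several times the difference between groups, so the skew of a single end does not tell whether it lay in a peak.

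**Figure D5:**
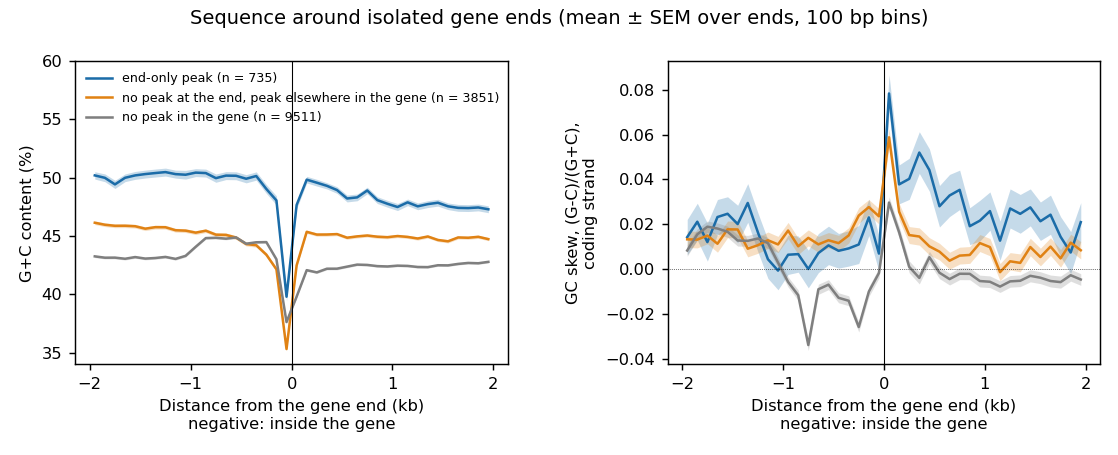
Mean G+C content (left, percent) and mean GC skew on the coding strand (right) in 100 bp bins against distance from the gene end (kb, negative before the end), for isolated ends in end-only peaks, isolated ends outside peaks in genes with a peak elsewhere, and isolated ends of genes without a peak. Bands are the SEM over ends and do not stand for replicates. G+C content dipped to 39.8%, 35.3% and 37.6% in the last 100 bp of the gene, and skew had its maximum of 0.0783, 0.0588 and 0.0296 in the 100 bp past the end.

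The largest downstream skew among peaks with 1 end was at 4932412H11Rik (0.876), 0610009D07Rik (0.808) and Hap1 (0.470), the gene of huntingtin-associated protein 1. The sequence past 4932412H11Rik is a GGA repeat with no C over its most G-rich 60 bases, and past Hap1 it is a TG repeat. These peaks were narrow, at 973, 1152 and 774 bp. The smallest value was -0.61 at 4933439F18Rik. Runs of GGGG on the coding strand were present within 1 kb past the end at 96.4% of the ends in end-only peaks and 87.7% of all ends, and CCCC at 94.0% and 87.0%, so that both letters were common.

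A poly(A) signal, AATAAA or ATTAAA on the coding strand within the last 40 bases of the gene, was present at 1206 of the 1654 ends (72.9%, 70.7 to 75.04%). The share was 73.8% for ends outside peaks in genes with a peak elsewhere, 59.4% for genes without a peak and 64.9% for all protein-coding ends. Ends in end-only peaks were therefore close to other ends of genes with peaks, with overlapping intervals. By class, it ranged from 66.1% inside another gene to 73.9% at isolated ends. The annotated gene end was the end of a coding transcript for 95.6% of the members. At 657 ends (39.7%), another coding transcript of the gene also ended within the peak, so the end used may not be the main cleavage site in NSPCs.

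Most genes that ended in these peaks had another peak. No other peak overlapped 646 of the 1654 genes (39.1%), while 521 had 1 other peak, 379 had 2 to 4 and 108 had at least 5. Among the 793 genes that ended in start-and-end peaks, 72.6% had no other peak. Among all genes, 65.9% had no peak apart from one at their end, and most of these were the 13509 genes without any peak. The gene start lay in another peak for 439 genes (26.5%, 24.4 to 28.7%), compared to 14.9% of all genes. Among the 1008 of these genes with at least 1 other peak it was 43.6%, and among genes that had a peak and ended outside one it was 36.9%. No other peak was present in 45.8% of genes with a convergent end and in 32.7% of genes with an isolated end. The median length of genes that ended in end-only peaks was 17.99 kb, compared to 35.8 kb for genes with a peak elsewhere, 9.57 kb for genes without a peak and 15.4 kb for all genes. The share of ends in end-only peaks was 1.79% in the quintile of shortest genes (up to 3.27 kb), 10.8% in the middle quintile and 6.39% in the quintile of longest genes (above 54.7 kb). In the shortest quintile, 5.19% of ends lay in peaks that also held a start.

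The actin gene Actb, whose human counterpart is the model terminator, had 2 peaks. One held the start, and the other (chr5:143659907-143665147) began 353 bp before the gene end and went on for 4887 bp past it, so that 6.74% of its 5241 bp lay inside the gene. The end-proximal G-rich stretch of Actb printed above was searched for only inside this peak, so its place there is no result. Of the other model terminators, Gemin7 had its start in a peak and Ensa a peak elsewhere, and neither end was covered.

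Of 28 genes of 3′ end processing and termination, 1 (3.57%) ended in an end-only peak, compared to the 7.39% of all ends, and 21 of them had a peak somewhere, beside 39.6% of all genes. This was Cpsf4, a subunit of the complex that binds the poly(A) signal, which shared a peak of 10.5 kb (chr5:145937709-145948223) with its convergent neighbour Atp5j2. Pabpn1, the nuclear poly(A)-binding protein gene, ended in a peak that also held a gene start. For Xrn2, its only peak was away from both start and end.

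Of 28 genes known for neural stem cells and progenitors, 27 were found in the annotation. Of these, 6 (22.2%) ended in an end-only peak, beside 7.39% of all ends, and Olig1 and Ccnd2 ended in peaks with a gene start. A peak anywhere in the gene was present for 20 of them, and for 39.6% of all genes. Peaks at Sox9, a transcription factor of neural stem cells and glia, and at Msi2, an RNA-binding protein of the Musashi family, lay almost wholly past the gene. The Sox9 peak (chr11:112648980-112650678) had 94 bp before and 1604 bp past the end, and the Msi2 peak (chr11:88147320-88152954) had 70 bp before and 5564 bp past it. Msi2 is 427 kb long and had 27 other peaks. The peak at Cspg4, the NG2 proteoglycan of oligodendrocyte progenitors, reached 6687 bp past the end (chr9:56746915-56754364). That of the growth factor receptor Fgfr1 (10.4 kb, chr8:26682588-26692947) extended to the end of its convergent neighbour Letm2. At the Notch1 receptor, the peak (chr2:26313108-26314342) was 1235 bp wide, of which 315 bp lay past the end, and at Id3, an inhibitor of bHLH factors, the peak (chr4:135699587-135702748) covered 92.3% of a gene of 2259 bp without its start. The cells are named by the labels, and a peak at a gene end is no measure of expression. None of the 10 neuron, 5 oligodendrocyte, 5 microglia and 5 endothelial marker genes ended in a peak, while 2, 2, 2 and 1 of them had a peak elsewhere. Since 10.9% of all ends lay in a peak, lists this short may hold none, and nothing is read from these counts.

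Some members lay close to the limits of the rule. All ends of 99 end-only peaks lay within 100 bp of a peak edge, and 126 peaks that held no start or end had an edge within 100 bp of a gene end. A protein-coding gene start lay within 100 bp outside 15 members and within 1 kb outside 110, the closest at 17 bp. A start of a protein-coding transcript other than the gene's outermost one lay in 76 members (5.48%), and 71 (5.12%) held the start of a noncoding gene. The most frequent noncoding features with a start or end in a member were processed transcripts (33 peaks) and lincRNAs (27). The name end-only thus refers to the outermost limits of protein-coding genes. Of the members' edges, 37.9% lay within 100 bp of a cut site, compared to 28.3% for all peaks, and the part of digestion in peak limits was not tested. Members touched a median of 4 fragments, and in 86 (6.20%) a fragment that the peak touched also held a protein-coding start.

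Across chromosomes, the share of protein-coding ends in end-only peaks was highest on chromosomes 11 (10.9%, 181 ends) and 5 (10.8%, 141 ends). It was lowest on X (2.36%, 22 of 932 ends) and, among autosomes, on 13 (4.27%). The list holds 293 peaks of any kind on X, and 5.80% of them were end-only, close to the 6.27% of the whole list. On chromosomes 11, 5 and 13, end-only peaks were 8.43%, 7.27% and 3.88% of all peaks. On Y, 0 of 17 ends were in such a peak, and the list holds 1 peak on this chromosome.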

How the data were processed

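The authors trimmed reads (Trim Galore 0.6.6, per the labels), aligned them to mm9 and took out duplicates before a Hidden Markov Model called the peaks. They deposited 1 list whose only values are positions in base pairs (other: chromosome, start and end), with no count, signal or score. Each library pooled repeat DRIP reactions of 1 biological replicate, but the rule that merged the replicates into 1 list is not given in the sources used here, the depth is unknown, and the input sample was not used here. Positions were converted to start at 1 and set against GENCODE M1 genes (37273, of which 22367 protein-coding) on 21 chromosomes of mm9. A peak contained a start or end when that base lay inside it, and other overlaps counted from 1 bp. Sequences came from mm9. Shares have exact Clopper-Pearson 95% intervals. The steps were checked on made-up gene and peak positions with known classes. Python 3.11.15, numpy 2.4.6, scipy 1.17.1, pysam 0.24.0 and matplotlib 3.10.9 were used.

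The members, classes and gene lists were chosen with earlier results of these data known. Genes were named by rule: the ends in the 3 widest peaks of each class, the 2 peaks with the most ends, the 2 narrowest, the 3 largest and the 1 smallest downstream skew in peaks with 1 end, the 2 closest convergent and the 2 closest tandem neighbours, and listed genes that end in a member. Other listed genes (Ensa, Gemin7, Xrn2, Pabpn1, Olig1 and Ccnd2) and neighbours were named after their values were seen. A symbol with several records was taken as the longest, and a symbol absent from the annotation was sought under the older names of RefSeq. Other peak widths, merged peaks, other annotations, windows and neighbour distances were tried. Results for 1 listed gene are not reported here, and it was left out of its list.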

Additional observations from a re-analysis of the deposited data

How the results depend on the processing

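Of 41 alternative values, 16 stayed within the counting interval of the reported value or, for the number of peaks, within 1.5 times of it. The number of end-only peaks (1388) ran from 1278 without members that have a gene start within 1 kb to 1875 with the limits of coding transcripts. Class shares moved with the neighbour distance. With neighbours within 1 kb, 14.0% were convergent, 0.865% tandem, 9.65% inside another gene and 75.4% isolated. Within 10 kb they were 42.1%, 19.8%, 2.02% and 36.1%. With all genes as neighbours, 38.1% were convergent, 11.5% tandem and 46.2% isolated. The mean width was 5.21 kb. The median upstream share was 59.4% in peaks with 1 end and 44.8% from the most upstream coding transcript end in the peak, so the side that held more of the peak depends on the end used. Mean skew before the end, near 0 as reported, changed sign to 0.0033 over 2 kb and 0.0062 without convergent ends. Past the end it was 0.0353 over 500 bp, 0.0168 over 2 kb and 0.0361 without convergent ends. A poly(A) signal was present at 75.5% of ends within 60 bases and at 60.1% with AATAAA alone. Genes without another peak made up 47.95% among peaks of at least 1 kb and 34.5% with 2 kb added to each side. Genes with a start in another peak made up 24.0% and, with a peak within 1 kb of the start, 35.0%. The cause was not tested beyond what each setting changes by construction. No paired analysis was possible because there is 1 list. Depth limits cannot be given without read counts.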
